A study of Macaca mulatta with 30 samples.

Results

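PDK1, PDK2, PDK3, PDK4, ANGPTL4, CPT1A and PPARGC1A were followed in the fetal lung and the fetal hippocampus of rhesus macaques after maternal betamethasone. Members were the rows of both count tables that carry these 7 symbols in the Ensembl rhesus annotation. All 7 had a row and passed the read minimum in both tissues, among 17644 of 30246 gene identifiers tested in lung and 17390 of 32386 in hippocampus. The genes were chosen for their function and with earlier results of these data known.

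The pyruvate dehydrogenase complex of mitochondria turns pyruvate into acetyl-CoA and so joins glycolysis to the citric acid cycle. Pyruvate dehydrogenase kinases phosphorylate the complex and switch it off, and pyruvate dehydrogenase phosphatases switch it on again. PDK4 is the kinase best known for its induction by fasting and by glucocorticoids, and PDK1 is a target of hypoxia-inducible factor. ANGPTL4 is a secreted inhibitor of lipoprotein lipase, CPT1A is the carnitine acyltransferase that admits long-chain fatty acids to mitochondria, and PPARGC1A encodes PGC-1alpha, a coactivator of mitochondrial and fasting genes.

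Pregnant, wild type macaques received a single intramuscular injection, and fetal RNA was sequenced. The lung groups, with 3 fetuses each, were saline controls, the clinical drug (Celestone, betamethasone-phosphate with betamethasone-acetate) at 0.25 mg/kg, taken 4 h or 5 days later, and betamethasone-acetate alone (Beta-Ac) at 0.125 mg/kg, taken 6 h or 5 days later. The hippocampus groups, with 5 fetuses each, were controls, the clinical drug (library names CEL) and Beta-Ac (library names BAC), all at 5 days. The lung labels give no time for the controls. The same 3 control animals are labelled with 5 days in hippocampus, and no control is labelled with 4 h or 6 h. In the early comparisons with controls, drug and time since injection therefore cannot be told apart. The labels give gestational days 124 to 130 for lung and 130 to 136 for hippocampus. These labels conflict in the 9 animals that gave both tissues. Animal 16-115, for example, has days 124 to 130 in lung and day 136 in hippocampus. The labels therefore do not show that the tissues differed in age. In hippocampus the treatment and dose fields contradict the library names. The library names were followed because the lung labels match them for the treated animals that gave both tissues. BAC235, BAC237, CEL238 and CEL245 have no lung library, so their names could not be checked in this way. Lung libraries held 14.1 to 45 M reads counted on genes, and hippocampus libraries 18.3 to 29.3 M. Levels are reads per 1 M counted reads after TMM normalization (CPM), which are not scaled by transcript length, so levels were not compared between genes. Differential expression was called where the change reached 1.5-fold or more, with p below 0.05 and adjusted p below 0.1, in edgeR's quasi-likelihood test across all tested genes of a tissue. The tissues were whole pieces, so a different number of cells of a type and a different amount of RNA per cell cannot be told apart.

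Of the 8 lung epithelial markers, 7 had a row and were read in every lung library, and all 8 hippocampal neuron markers were read in every hippocampus library. Their summed level in lung was 7380 to 10700 CPM in controls, 12400 to 18600 CPM at 4 h after the clinical drug and 9620 to 14200 CPM at 6 h after Beta-Ac. Exposure of the lung to the steroid was checked with FKBP5, a chaperone of the glucocorticoid receptor, and ZBTB16, a transcription factor, both known glucocorticoid targets. FKBP5 was 5.27 to 5.83 CPM in controls, 120.2 to 218.7 CPM at 4 h after the clinical drug and 18.9 to 105.9 CPM at 6 h after Beta-Ac. ZBTB16 was 4.12 to 12.2 CPM in controls, 125.5 to 266.7 CPM after the clinical drug and 86.4 to 183.4 CPM after Beta-Ac. Both genes lay above every control in every early treated library.

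PDK4 was the member that rose early in the lung, and it did so after both drugs. In the control animals 15-92, 15-101 and 16-113 it was 39.0, 14.6 and 29.5 CPM. At 4 h after the clinical drug it was 359.3, 237.5 and 277.8 CPM in animals 15-81, 15-85 and 15-97. Every treated library lay far above every control. The mean was 291.5 ± 62.0 CPM (SD, n = 3) against 27.7 ± 12.3 CPM (SD, n = 3), a 10.5-fold increase with a 95% confidence interval of 5.58 to 19.7. The log2 fold change was 3.39 (SE 0.42), with an adjusted p of 0.000211 by edgeR, and these levels rest on 23129 PDK4 reads after the drug and 1457 reads in controls. PDK4 was the 1 member called of 7, where 7.4% of all genes were called and 21.3% had groups that did not overlap.

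At 6 h after Beta-Ac, PDK4 was 90.9, 53.4 and 153.0 CPM in animals 16-123, 16-131 and 17-254. All 3 libraries again lay above every control. The mean of 99.1 ± 50.3 CPM (SD, n = 3) was 3.56-fold that of controls, with an interval of 1.96 to 6.49 and a log2 fold change of 1.83 (SE 0.40, adjusted p = 0.081 by edgeR). PDK4 was again the 1 member called of 7, against 0.442% of all genes called and 16.3% with groups that did not overlap. This call was lost under 7 of 13 alternatives. It was lost when any of the 3 controls, animal 16-123 or animal 17-254 was left out, with Benjamini-Hochberg adjustment, and when only both groups compared were fitted. The log2 fold change stayed between 1.37, without animal 17-254, and 2.13, without control 15-92. Both drugs were compared with the same 3 controls.

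**Figure D1:**
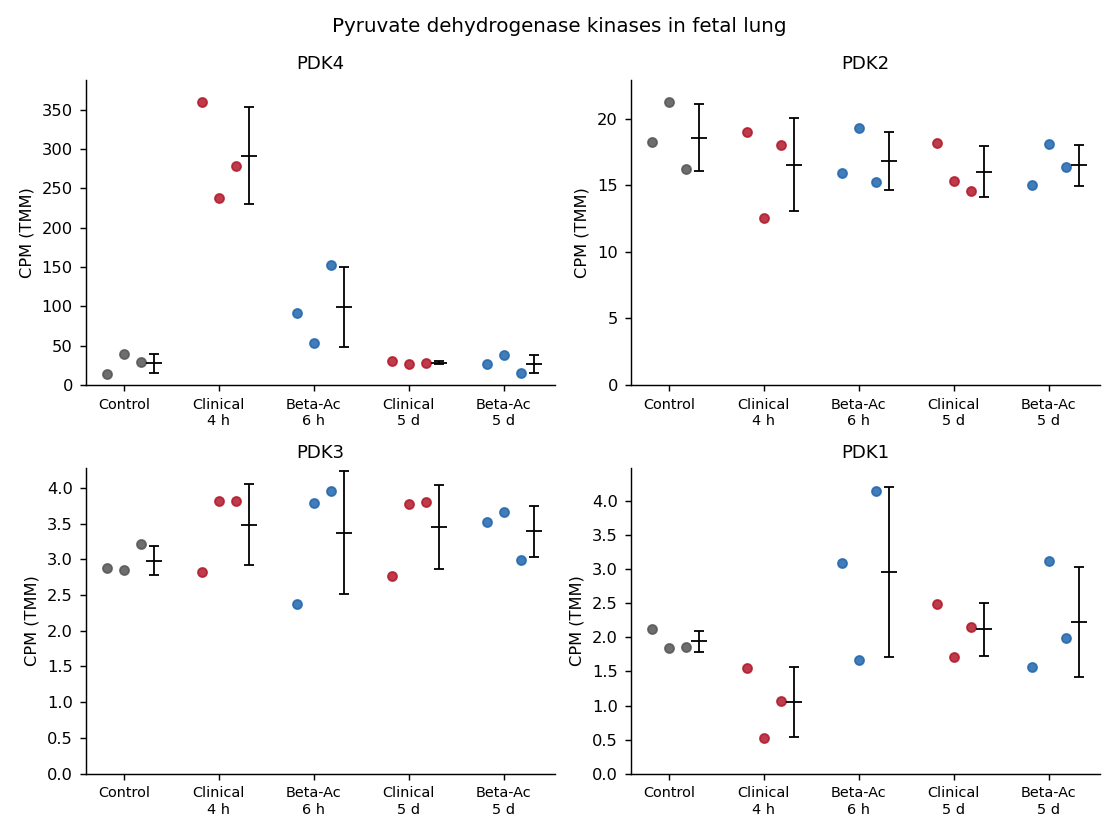
Levels of the pyruvate dehydrogenase kinases in fetal lung, in CPM on linear axes from 0. Points are libraries (3 per group, grey for controls, red for the clinical drug, blue for Beta-Ac), and bars beside them give the mean ± SD. PDK4 lies between 53.4 and 359.3 CPM in all 6 early treated libraries and at or below 39.0 CPM in all others.

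At 5 days PDK4 in the lung was in the range of the controls. It was 30.4, 26.8 and 28.1 CPM in animals 16-115, 16-120 and 16-126 after the clinical drug, and 26.3, 37.5 and 14.7 CPM in animals 16-128, 16-130 and 16-136 after Beta-Ac. All 6 values lay within the range of the 3 controls. The fold change against controls was 1.02 after the clinical drug, with an interval of 0.568 to 1.85, and 0.942 after Beta-Ac, with an interval of 0.522 to 1.70. PDK4 at 4 h after the clinical drug was 10.3-fold its level in other animals at 5 days. The log2 fold change was 3.36 (SE 0.42, adjusted p = 0.000175 by edgeR). PDK4 was the 1 member called there, where 10.4% of all genes were called and 29.1% did not overlap. For Beta-Ac the 6 h level was 3.78-fold the 5-day level, with a log2 fold change of 1.92 (SE 0.40, adjusted p = 0.0903 by edgeR), where 0.261% of all genes were called and 13% did not overlap. That call was also lost under 7 of 13 alternatives, among them the removal of any of the 3 animals at 5 days, of animal 16-123 or of animal 17-254. The times were compared between different animals. For the clinical drug the animal numbers begin with 15 at 4 h and with 16 at 5 days, so prefix and time cannot be told apart.

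Between the early groups, PDK4 was 2.95-fold higher after the clinical drug than after Beta-Ac (interval 1.64 to 5.28). The lowest library of the clinical drug, at 237.5 CPM, was above the highest of Beta-Ac, at 153.0 CPM. The log2 difference of 1.56 (SE 0.39) had an adjusted p of 0.0268 by edgeR and stayed called under all 13 alternatives, with log2 values of 1.26 to 2.02. These groups differ in the drug, in the dose (0.25 against 0.125 mg/kg) and in the time (4 against 6 h), which cannot be told apart. The animal numbers at 4 h begin with 15 and those at 6 h with 16 or 17, so these prefixes cannot be told apart from the drug either. FKBP5, too, was higher in the clinical group, by a log2 difference of 1.73 (SE 0.44, adjusted p = 0.0268 by edgeR). That call was lost in the fit of only both groups (adjusted p = 0.156 by edgeR), and without animal 17-254 the FKBP5 difference was 2.78.

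The other kinases did not pass the test against controls in the lung at any time. PDK2, a widely expressed kinase of the family, was 16.2 to 21.2 CPM in controls and 12.6 to 19.4 CPM in the early treated libraries. Its log2 fold change was -0.16 (SE 0.17) at 4 h after the clinical drug and -0.14 (SE 0.17) at 6 h after Beta-Ac, with intervals from -0.53 to 0.20 and from -0.50 to 0.23. PDK3, a kinase of narrower expression in adult tissues, was 2.86 to 3.21 CPM in controls and 2.38 to 3.95 CPM in the early treated libraries. Its log2 fold changes were 0.21 (SE 0.25) and 0.18 (SE 0.25), and its groups overlapped in each comparison.

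PDK1 differed between the early groups. It was 1.84, 2.12 and 1.86 CPM in controls, against 1.55, 0.523 and 1.06 CPM at 4 h after the clinical drug. In the Beta-Ac group at 6 h it was 3.09, 1.66 and 4.15 CPM in animals 16-123, 16-131 and 17-254. The clinical group lay below every control and below every Beta-Ac library, and the Beta-Ac group overlapped the controls. Of all genes, 21.3% did not overlap between the clinical group and controls. Against controls PDK1 missed the threshold after both drugs, with log2 fold changes of -0.83 (SE 0.42, adjusted p = 0.213 by edgeR) and 0.61 (SE 0.40, adjusted p = 0.441 by edgeR). Between the early groups it was called, at 1.05 against 2.97 CPM, with a log2 difference of -1.43 (SE 0.41, adjusted p = 0.0411 by edgeR). PDK4 and PDK1 were the 2 members called of 7 in this comparison, where 6.74% of all genes were called and 22.4% did not overlap. CPT1A did not overlap there either and was not called. Its log2 difference was -0.38 (SE 0.20, adjusted p = 0.177 by edgeR). The PDK1 call rests on 91 reads after the clinical drug and 194 after Beta-Ac. By library there were 67, 7 and 17 reads in 15-81, 15-85 and 15-97. Animals 16-123, 16-131 and 17-254 had 61, 47 and 86 reads. The call was lost without animal 15-85 (log2 difference -1.14), without animal 17-254 (-1.11) and with only both groups in the fit.

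As a share of all reads on PDK1 to PDK4, PDK4 made up 38.5 to 60.1% in controls. The share was 92.4 to 93.9% at 4 h after the clinical drug and 68.3 to 86.7% at 6 h after Beta-Ac. Later, at 5 days, it was 56.3 to 57.9% after the clinical drug and 40.7 to 60.1% after Beta-Ac, in the range of the controls. The difference of means from controls was 41.0 percentage points at 4 h and 26.4 at 6 h. Each early group was separated from controls, and each exact two-sided permutation p was 0.1, the smallest that 3 against 3 animals allows. This share is of reads, not of protein, and kinases of unequal transcript length are not weighted alike in it.

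ANGPTL4 was variable between animals and passed no test in the lung. It was 9.16, 2.19 and 4.47 CPM in controls and 3.13, 2.92 and 5.76 CPM at 4 h after the clinical drug. In the Beta-Ac group at 6 h it was 8.40, 3.82 and 18.8 CPM, the last in animal 17-254. All lung groups overlapped the controls. The log2 fold change was -0.43 (SE 0.61) after the clinical drug and 0.96 (SE 0.60) after Beta-Ac, with intervals from -1.73 to 0.87 and from -0.32 to 2.24. Without animal 17-254 the Beta-Ac value was 0.20, and without control 15-92 it was 1.59, so the value of this gene depends on single animals.

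CPT1A was 56.9, 33.9 and 50.5 CPM in controls, 49.1, 41.2 and 55.2 CPM at 4 h after the clinical drug, and 60.9, 55.7 and 73.2 CPM at 6 h after Beta-Ac. The Beta-Ac libraries were the highest group, and the lowest of them lay just under the highest control. The log2 fold change was 0.04 (SE 0.20) after the clinical drug and 0.42 (SE 0.20, adjusted p = 0.326 by edgeR) after Beta-Ac, and neither was called. Against the 5-day animals of Beta-Ac, at 42.6, 44.2 and 30.4 CPM, the 6 h group did not overlap, as in 13% of all genes. The log2 difference was 0.70 (SE 0.20, adjusted p = 0.241 by edgeR). DESeq2 called that difference, with an adjusted p of 0.0649.

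PPARGC1A was not called in any lung comparison. It was 25.7, 29.2 and 37.4 CPM in controls, 18.8 to 30.9 CPM at 4 h after the clinical drug and 21.5 to 30.7 CPM at 6 h after Beta-Ac. At 5 days after Beta-Ac it was 22.6, 20.6 and 24.2 CPM, below every control. That log2 fold change was -0.45 (SE 0.20, adjusted p = 0.727 by edgeR), where 12.1% of all genes did not overlap between the groups. Its relative PPARGC1B, a second PGC-1 coactivator, was called at 4 h after the clinical drug, at 2.08 against 3.83 CPM with a log2 fold change of -0.85 (SE 0.29, adjusted p = 0.0787 by edgeR). The PPARGC1B call was lost under 7 of 13 alternatives, among them no filter, Benjamini-Hochberg adjustment, only both groups in the fit, and the removal of 15-85, 15-97, 15-101 or 16-113, with adjusted p up to 0.252 by edgeR.

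**Figure D2:**
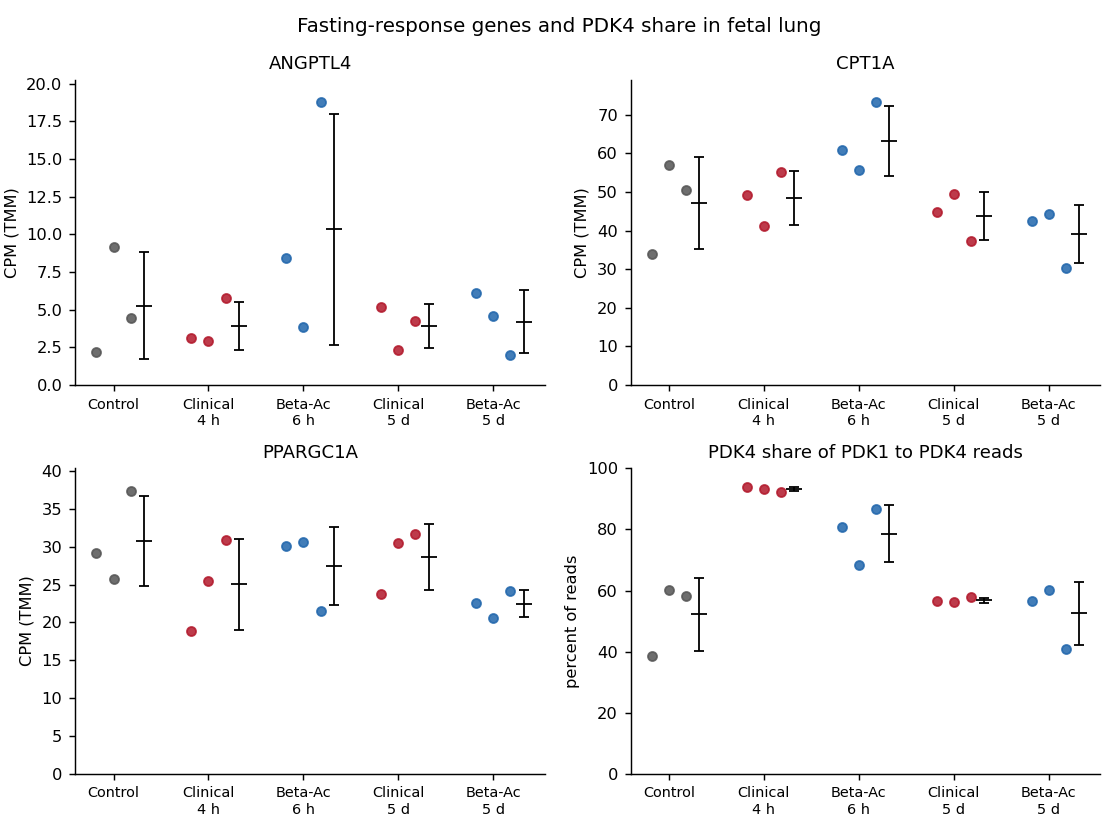
Levels of ANGPTL4, CPT1A and PPARGC1A in fetal lung in CPM, and the share of PDK4 among reads on PDK1 to PDK4 in percent, all on linear axes from 0. Points are libraries (3 per group, coloured by drug), and bars give the mean ± SD. The highest ANGPTL4 and CPT1A points, 18.8 and 73.2 CPM, come from the same animal at 6 h after Beta-Ac, and the PDK4 share is at or above 92.4% in all 3 libraries at 4 h.

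Animal 17-254 of the Beta-Ac 6 h group held the highest lung levels of PDK1, ANGPTL4 and CPT1A of all 15 libraries and the highest PDK4 of its group. Its summed level of the 4 red blood cell markers with a row was 223 CPM, against 40.3 and 47.1 CPM in the other libraries of its group and 22.9 to 82.6 CPM in controls. Its liver markers summed to 266 CPM, against 53.6 and 193 CPM in its group. The liver sum was higher still in animal 16-128 at 5 days after Beta-Ac, at 302 CPM. The part of these in the results was not tested. Of the 6 adipocyte markers 4 were read in every lung library. LEP and ADIPOQ, which define the cell type, were at 0 in every control and 4 h library, and LEP alone was at 0 in every library of the Beta-Ac 6 h group. The adipocyte list summed to 22.1 to 32.6 CPM in the controls and the early treated groups.

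At 5 days no member was called in the lung by edgeR or DESeq2. Of all genes, 0% were called with the clinical drug, 0.00567% with Beta-Ac and 0% between the drugs. The paper, with edgeR and the same thresholds, reported many more genes against controls at 5 days after each drug. The reason for this difference was not tested. At an unadjusted p under 0.05, edgeR found 0 members after the clinical drug, 1 after Beta-Ac, which was PPARGC1A, and 0 between the drugs. The difference between the drugs at 5 days, at unequal doses, had an interval on the log2 scale from -0.73 to 0.96 for PDK4, from -1.40 to 1.17 for ANGPTL4 and from -0.25 to 0.58 for CPT1A.

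**Figure D3:**
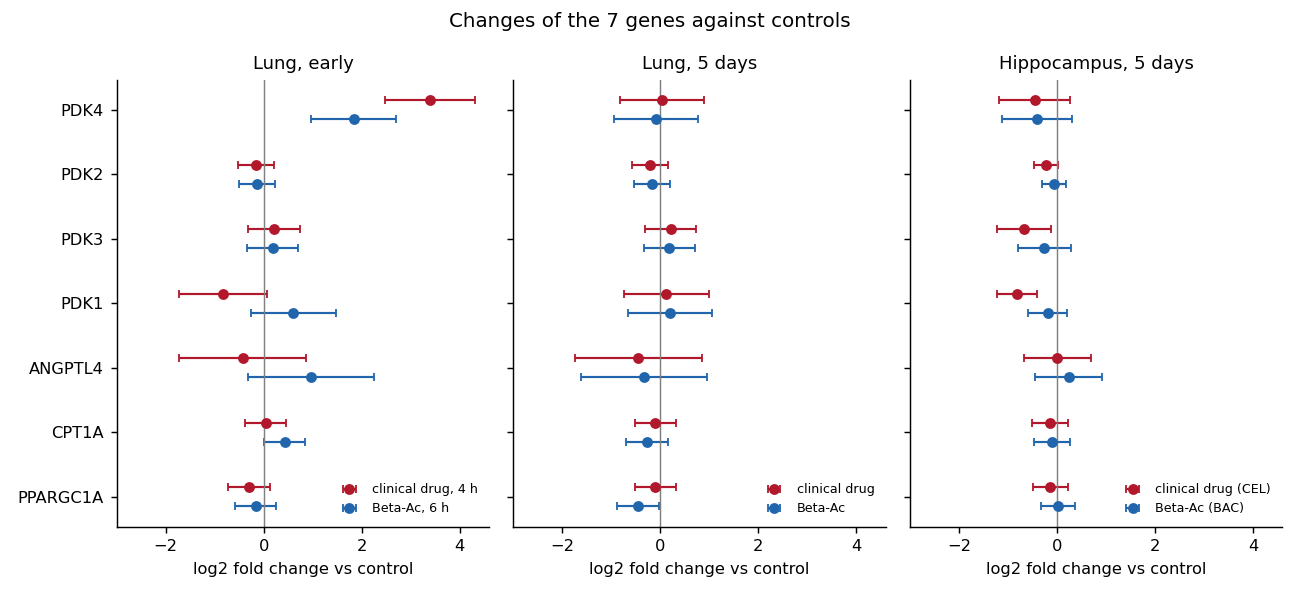
Log2 fold changes of the 7 genes against the controls of the same tissue, with 95% confidence intervals from edgeR, for early lung, lung at 5 days and hippocampus at 5 days. Red points are the clinical drug and blue points Beta-Ac. PDK4 in early lung stands at 3.39 and 1.83, and PDK1 in hippocampus after the clinical drug at -0.82.

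The surrounding pathways were counted with 8 lists, in which 99 gene entries were tested in lung. At 4 h after the clinical drug 20 of them were called, 14 higher and 6 lower, against 3.46% of all genes higher and 3.94% lower. At 6 h after Beta-Ac 2 were called, both higher, against 0.368% of all genes. The number at 4 h was 12 without animal 15-81, 13 without control 15-101 or 16-113, and 28 with no fold threshold. The number at 6 h was 8 with DESeq2, 7 without animal 16-131, 1 without control 15-101 or 16-113 or with only both groups in the fit, and 0 without control 15-92 or animal 17-254. No entry was called by edgeR in either lung comparison with controls at 5 days.

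The list of gluconeogenesis and hepatic fasting response held 9 of those 20 calls at 4 h, with 8 of 17 tested genes higher and 1 lower, and 5 calls without animal 15-81. Its median log2 fold change was 0.72, against 0.02 over all genes. KLF15, a glucocorticoid-responsive regulator of amino acid and glucose metabolism, was 85.5 to 121.5 CPM after the clinical drug against 18.2 to 23.0 CPM in controls, with a log2 fold change of 2.36 (SE 0.23). FOXO3 and FOXO1, the forkhead factors that insulin signalling keeps out of the nucleus, rose with log2 fold changes of 1.86 (SE 0.33) and 1.23 (SE 0.29). SESN1, a stress-responsive regulator of mTORC1, rose by 0.82 (SE 0.11) on the log2 scale. The 1 gene that fell was FBP1, a gluconeogenic enzyme, at 55.0 against 82.3 CPM, and its call was lost under 7 of 13 alternatives: no filter, Benjamini-Hochberg adjustment, only both groups in the fit, and without 15-81, 15-97, 15-101 or 16-113. At 6 h after Beta-Ac KLF15 was the 1 called gene of the list, at 38.9 to 70.2 CPM and with a log2 fold change of 1.33 (SE 0.23, adjusted p = 0.0355 by edgeR). This KLF15 call was lost in the fit of only both groups and without control 15-92 or 16-113 or animal 17-254 (adjusted p up to 0.184 by edgeR). The list's median was then 0.18, against 0.02 over all genes.

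For the enzyme that the kinases act on, none of the 8 genes for its subunits and phosphatases was called by edgeR after either early treatment, with list medians of 0.22 and -0.06. PDHA1, the subunit that the kinases phosphorylate, was 72.0 against 59.1 CPM at 4 h after the clinical drug, with a log2 fold change of 0.28 (SE 0.08, adjusted p = 0.0447 by edgeR), under the fold threshold. PC, the carboxylase that takes pyruvate to oxaloacetate, was called among the 8 genes of pyruvate and lactate handling. It was 38.6 to 53.4 CPM at 4 h after the clinical drug against 17.7 to 22.3 CPM in controls, with a log2 fold change of 1.18 (SE 0.15, adjusted p = 0.000196 by edgeR).

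Genes of fatty acid oxidation were not called, with 0 of 19 tested after either early treatment and medians of 0.07 and 0.05. Among 12 PPAR receptors and targets at 4 h, PLIN2, which coats lipid droplets, and TXNIP, an inhibitor of glucose uptake, rose, while UCP2, a mitochondrial carrier, fell. PLIN2 was 6.20 to 9.40 CPM against 2.53 to 2.68 CPM in controls, and UCP2 was 7.18 to 10.1 CPM against 13.6 to 19.8 CPM. Leaving out 15-81, 15-92, 15-101 or 16-113 ended the PLIN2 call. The call of TXNIP ended without 15-81, 15-92 or 16-113, and that of UCP2 ended without 16-113. LPL, the lipase that ANGPTL4 inhibits, rose from 51.8 to 176.0 CPM on average, with a log2 fold change of 1.77 (SE 0.30, adjusted p = 0.00198 by edgeR). ANGPTL2 and LIPG, an angiopoietin-like protein and endothelial lipase, fell in the same list of 8, and the LIPG call was lost in the fit of only both groups and without 15-81, 15-85 or 15-101. In the 15 hypoxia-inducible genes BNIP3 and HK2 rose and EGLN3 fell at 4 h, while HK2, the hexokinase of insulin-responsive tissues, was the 1 gene called at 6 h after Beta-Ac, at 32.5 to 41.3 CPM against 13.5 to 17.7 CPM in controls. At 4 h the HK2 call was lost under 8 of 13 alternatives, including the removal of any animal of either group, and the EGLN3 call without 15-85, 15-101 or 16-113. The HK2 call at 6 h was lost without 15-92, 15-101, 16-123 or 17-254.

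**Figure D4:**
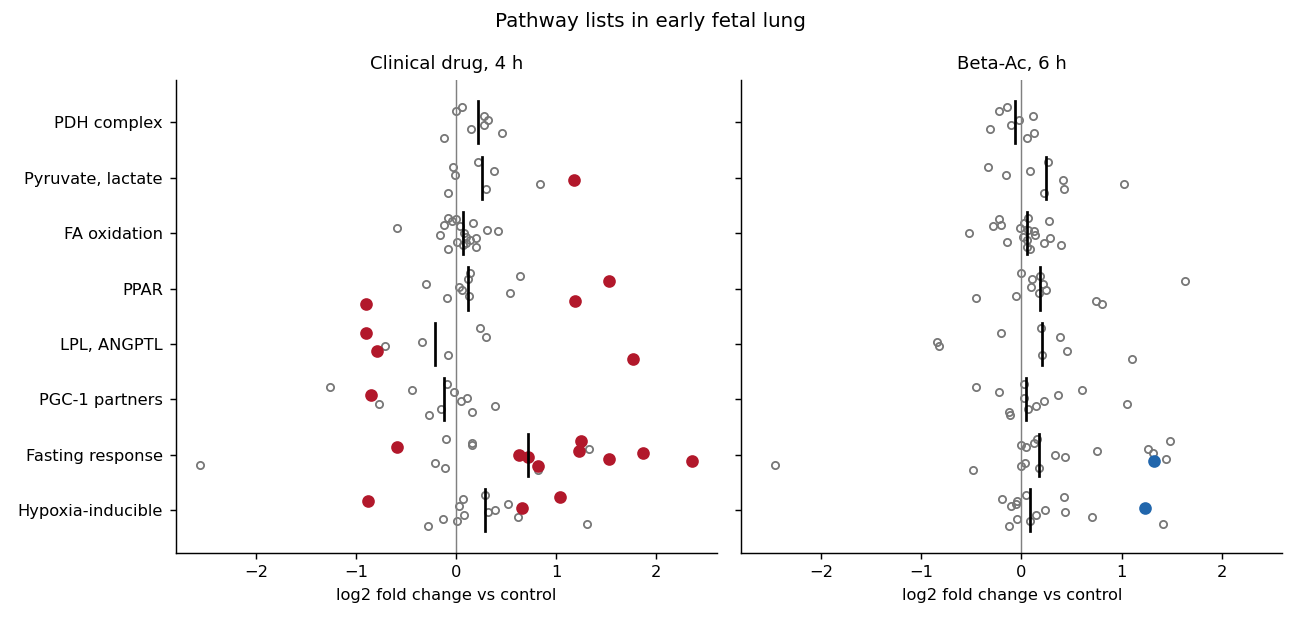
Log2 fold changes against lung controls of the tested genes in 8 pathway lists, at 4 h after the clinical drug (left) and 6 h after Beta-Ac (right). Filled points were called, open points were not, and each black line is the list median. Fasting-response genes reach 2.36 (KLF15) on the left with a median of 0.72, and 2 points are filled on the right.

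Across the 15 lung libraries, the genes whose log2 CPM followed PDK4 most closely were ARHGAP10 (Pearson r = 0.958), LAMB1 (0.958) and MERTK (0.955), out of 12449 tested genes with a symbol. For ANGPTL4 they were ASB3, ARSJ and TMEM216, with r of 0.798, 0.795 and 0.786, and for CPT1A they were HADHB, TMEM216 and EPS15, with r of 0.840, 0.798 and 0.776. HADHB is a subunit of the mitochondrial trifunctional protein of fatty acid oxidation. For PPARGC1A they were CKAP2, PSMD13 and ADH4, with r of 0.831, 0.811 and 0.809. Among the members themselves, ANGPTL4 and CPT1A had r = 0.776, PDK4 and CPT1A 0.548, and PDK4 and PDK2 -0.087. These values describe 15 libraries that share 5 groups and differ in depth, and each list of most similar genes was picked as the highest of many.

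In the hippocampus at 5 days, PDK1 and PDK3 fell after the clinical drug. PDK1 was 5.21, 3.58, 3.65, 4.40 and 4.20 CPM in controls CTL092, CTL101, CTL113, CTL209 and CTL212, and 2.36, 2.21, 2.88, 2.27 and 2.17 CPM after the clinical drug. Every treated library lay below every control. The mean of 2.38 ± 0.28 CPM (SD, n = 5) against 4.21 ± 0.66 CPM (SD, n = 5) gave a log2 fold change of -0.82 (SE 0.19, adjusted p = 0.0186 by edgeR). PDK3 was 2.95, 2.99, 3.57, 4.52 and 5.36 CPM in controls and 3.44, 2.32, 2.55, 2.01 and 1.86 CPM after the clinical drug. The PDK3 groups overlapped, since CEL115, at 3.44 CPM, stood above 2 controls. Its log2 fold change was -0.67 (SE 0.26, adjusted p = 0.0969 by edgeR), at the edge of the threshold. PDK1 and PDK3 were the 2 members called of 7, both lower, where 7.86% of all genes were called, 5.35% lower and 2.5% higher, and 15.1% did not overlap.

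These libraries came from 4 sequencing runs, and only 2 runs held all 3 groups. Within the run of CTL113, PDK1 was 3.65 CPM in that control and 2.21 to 2.88 CPM in 3 libraries of the clinical drug. Within the run of CTL212 it was 4.20 CPM in the control and 2.17 and 2.27 CPM in 2 libraries. PDK1 was lower in all 5 treated libraries than in the control of their own run. With run as a covariate its log2 fold change was -0.72 (adjusted p = 0.119 by edgeR), and in the 2 shared runs alone it was -0.70 (adjusted p = 0.14 by edgeR), so the call was lost in both fits. PDK3 had -0.85 and -0.83 in those fits and lost its call as well. Both fits compare the drugs with CTL113 and CTL212 only, since the other controls share no run with a treated library. CTL212 had the highest PDK3 of the controls and stood apart in choroid plexus markers, as given below. Without CTL212, in the fit that leaves run out, PDK3 had -0.53 (adjusted p = 0.195 by edgeR). PDK3 was 3.57 CPM in CTL113 against 2.32 to 3.44 CPM, and 5.36 CPM in CTL212 against 1.86 and 2.01 CPM. The PDK3 call was lost under 13 of 19 alternatives, among them RLE normalization, no filter, and the removal of any 1 of the controls.

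After Beta-Ac no member was called in the hippocampus by edgeR or DESeq2, and 0% of all genes were called. No member had an unadjusted p under 0.05. PDK1 was 4.59, 3.46, 2.92, 2.71 and 4.78 CPM, overlapping the controls, with a log2 fold change of -0.19 (SE 0.19, interval -0.58 to 0.21). Between the drugs, again at unequal doses, 0 members and 0% of all genes were called by edgeR. PDK1 had a log2 difference of -0.63 (SE 0.19, interval -1.04 to -0.23, adjusted p = 0.226 by edgeR), the 1 member with an unadjusted p under 0.05. DESeq2 called it, with an adjusted p of 0.0805.

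PDK2 was 47.8 to 57.7 CPM in hippocampus controls, 39.5 to 50.8 CPM after the clinical drug and 39.1 to 60.1 CPM after Beta-Ac, with log2 fold changes of -0.23 (SE 0.11) and -0.06 (SE 0.11). PDK4 was 1.13 to 5.96 CPM in controls, 1.62 to 2.42 CPM after the clinical drug and 1.73 to 2.67 CPM after Beta-Ac. Its log2 fold changes of -0.45 (SE 0.34) and -0.40 (SE 0.34) were not called. Without CTL212 they were 0.07 and 0.12, with run as a covariate -1.02 and -0.97, and in the 2 shared runs -0.99 and -0.93. CTL212 had PDK4 at 5.96 CPM, and the other 4 controls reached at most 2.37 CPM. CPT1A was likewise 71.3 CPM in CTL212 and 34.2 to 43.6 CPM in the other controls. The choroid plexus markers CLIC6, FOLR1 and PRLR summed to 770 CPM in CTL212 and to at most 4.61 CPM in any other hippocampus library, and their part in these values was not tested. The PDK4 share of reads on the 4 kinases was 1.98 to 9.41% in controls, 3.04 to 4.97% after the clinical drug and 2.91 to 4.06% after Beta-Ac. Its exact two-sided permutation p against controls came to 0.937 (clinical drug) and 0.865 (Beta-Ac).

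ANGPTL4, CPT1A and PPARGC1A overlapped the controls after both drugs in the hippocampus. ANGPTL4 was 3.73 to 7.06 CPM in controls, 2.83 to 5.95 CPM after the clinical drug and 2.80 to 8.81 CPM after Beta-Ac. CPT1A was 33.5 to 48.7 CPM after the clinical drug and 36.6 to 47.8 CPM after Beta-Ac. PPARGC1A was 47.8 to 70.3 CPM in controls, 46.5 to 63.7 CPM and 38.8 to 78.7 CPM after the drugs. None of the 6 log2 fold changes lay beyond 0.24 in size. Of 103 tested list entries 4 were called after the clinical drug, or 3.88%, against 7.86% of all genes. These were ECI1, RXRA and CD36, which fell, and 1 of the 2 LDHB identifiers, which rose. The calls of ECI1, RXRA and CD36 were lost with run as a covariate and in the 2 shared runs, and those of ECI1 and RXRA under 8 and 9 of 19 alternatives in all. The number called was 2 without CEL126 and 19 with no fold threshold. LDHB is uncertain, since its reads may be split between those identifiers. The astrocyte markers summed to 3490 to 4790 CPM after the clinical drug (median 4010) and 2440 to 3710 CPM in controls (median 2800). After Beta-Ac they summed to 2470 to 4400 CPM (median 4200). The part of these markers in the kinase results was not tested.

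**Figure D5:**
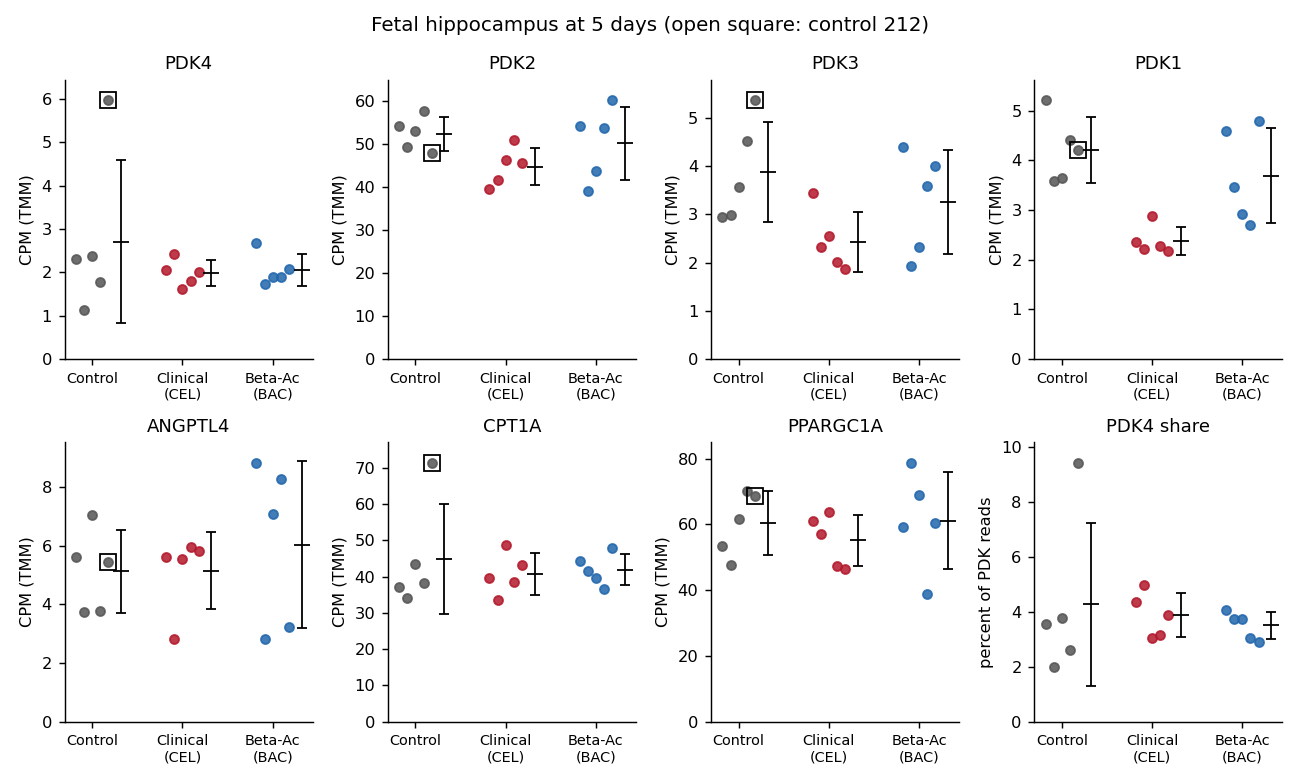
Levels of the 7 genes in fetal hippocampus at 5 days in CPM, and the PDK4 share of kinase reads in percent, on linear axes from 0. Points are libraries (5 per group), bars give the mean ± SD, and the open square marks control CTL212. PDK1 after the clinical drug, 2.17 to 2.88 CPM, lies below all 5 controls, and PDK4 and CPT1A are highest in CTL212.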

How the data were processed

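The deposited values were whole-number counts of reads per Ensembl gene, which the authors made by alignment to MMUL1.0 and counting with featureCounts, before their filter and normalization. The paper names Bowtie 2, and the submitters' processing notes for lung name Bowtie 1.2.1.1 and featureCounts 1.5.1. Hippocampus libraries were poly(A)-selected and read as 75 bp pairs. Tests took genes that reached 7 reads in 3 or more libraries of lung, or in 5 or more of hippocampus. They used edgeR 4.0.16 (R 4.3.3), scaled by TMM, with 1 quasi-likelihood fit per tissue. Lung p-values were adjusted after Storey, those of hippocampus after Benjamini-Hochberg. The prior count was 0.125 for fold changes and 2 for log2 CPM. The 7 genes and the pathway and marker lists were chosen with earlier results of these data known. Named list genes are up to 4 called genes per list with the smallest adjusted p. Genes outside that rule that are named for function are PDHA1 and FBP1, and they were chosen after their values were seen. Alternatives were RLE normalization, no filter, filterByExpr, only both groups compared, DESeq2 1.42.0, the other adjustment, no fold threshold, each animal left out, and in hippocampus sequencing run. The fit was also run on simulated counts with known changes, for the clinical drug against controls at 4 h in lung and in hippocampus. The other comparisons and the fits with sequencing run were not simulated. Symbols were matched for 52.1% of lung and 54.4% of hippocampus identifiers, and the 2 tables list different identifiers, so levels were not compared between tissues. Within a tissue, libraries are separate fetuses, and 9 animals gave both tissues. Each library held 14.1 M counted reads or more. The spread between animals sets the precision where counts are high. For members with few reads, such as PDK1 in lung, counting noise adds to it. No sequences or genome positions were used here.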

Additional observations from a re-analysis of the deposited data

Results flagged for a closer look

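In the early lung groups the effects of the drugs differed by a direct edgeR contrast for PDK4 (log2 difference 1.56) and PDK1 (-1.43), at unequal doses and times. The effect on PDK4 also differed between times, by 3.36 for the clinical drug between 4 h and 5 days and by 1.92 for Beta-Ac between 6 h and 5 days.

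Of 24 hippocampus groups of 5 values examined with Dixon's criterion, 5 held a value far from the others, where chance gives about 5% of groups. In control CTL212 these were PDK4 at 5.96 CPM (gap over range 0.744), CPT1A at 71.3 CPM (0.746) and the PDK4 share at 9.41% (0.759). After the clinical drug, ANGPTL4 was lowest in CEL120 at 2.83 CPM (0.872) and PDK1 was highest in CEL126 at 2.88 CPM (0.730), still below all 5 controls.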

How the results depend on the processing

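Of 8 member calls, the log2 fold change kept its direction in all 116 alternative fits and lost the threshold in 32. Of 69 member results not called, 4 became called under some alternative, and 78 of their 1011 alternative values, in 33 results, had the opposite sign. In 76 of these the reported value was within 1 SE of 0, as for ANGPTL4 in lung without 15-92 (0.202 at 4 h and 0.204 at 5 days after the clinical drug, 0.322 at 5 days after Beta-Ac), CPT1A in hippocampus without CTL212 (0.089 and 0.132) and PPARGC1A after Beta-Ac with run as a covariate (-0.157). The other 2 were PDK4 in hippocampus without CTL212 (-0.65 to 0.065 for the clinical drug and -0.596 to 0.12 for Beta-Ac over all animals left out). The cause was not tested. The number of members called at 6 h after Beta-Ac against controls went from 1 to 0 with Benjamini-Hochberg adjustment and in the fit of only both groups, and was 0 to 1 with 1 animal left out. Against 5 days it was 0 in both of these fits, 2 with DESeq2 (CPT1A added), and 0 to 1 with 1 animal left out. Between the early drugs it was 1 in the fit of only both groups and 1 to 3 with 1 animal left out (ANGPTL4 added without 16-131, PDK1 lost without 15-85 or 17-254). For the clinical drug at 4 h against 5 days it was 2 with filterByExpr and 1 to 2 with 1 animal left out (PDK1 added without 15-81). In hippocampus the 2 calls for the clinical drug were 1 with RLE and without a filter, 1 to 2 with 1 animal left out, and 0 with run as a covariate or in the 2 shared runs. DESeq2 called 1 member between the drugs there. The PDK4 share kept its difference from controls with 1 animal left out, at 34.1 to 44.9 percentage points for the clinical drug at 4 h and 19.6 to 31.6 for Beta-Ac at 6 h. Among the other genes followed across alternatives, in comparisons where they were not called, 173 of 3658 alternative values had the opposite sign, and in 165 of these the reported value was within 1 SE of 0. The other 8 were INSR at 4 h without 15-81 (-0.097 to 0.442 against Beta-Ac at 6 h and -0.026 to 0.511 against 5 days over animals left out), FBP1 at 5 days after Beta-Ac without 16-130 (-0.007 to 0.369), IRS2 and ANGPTL2 between 6 h and 5 days of Beta-Ac without 17-254 (-0.123 to 0.754 and -0.469 to 0.016), HK2 in hippocampus after the clinical drug with run as a covariate and in the shared runs (-0.099 and -0.073), and CD36 there after Beta-Ac in the shared runs (0.009). Within a tissue no paired analysis was possible, because every library is a separate fetus. The 9 animals that gave both tissues were not tested as pairs, since levels were not compared between tissues. With 3 animals per lung group, PDK1 had 91 to 194 reads per lung group.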
